A study of Rattus with 12 samples.

Results

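Cell cycle and proliferation genes were followed through co-cultures of rat neurons and glia exposed to the opioid fentanyl. The set was named by symbol as 35 genes with roles in DNA replication, mitosis and cell division. Measured values did not set the choice, but earlier results of these data were known when it was made. The deposited table lists 34 of them among 17337 gene symbols, and all 34 were among the 12271 genes with enough reads to be tested. Cenpe, a kinetochore motor, was not analysed here. No gene of the set was called between fentanyl doses, in a fit that called 0 of the 12271 genes. The direction of the set changed with the fit, and differences between doses were not excluded. The genes varied more between cultures than between doses, as did genes in general. In 8 cultures their level was a median of 1.99 times that in 3 others with consecutive letters, where all genes had 1.03. Those 3 were singled out after their values were seen. Most of the genes were highest in 1 untreated culture, which the 8 leave out.

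The cultures held cortical neurons, astrocytes and oligodendrocyte precursor cells (OPCs) of Sprague Dawley rats. These are primary cells bought from suppliers and grown together, and the sources used here tie no culture to an animal. Exposure began at 24 to 26 days in vitro and lasted 4 days, after which poly(A)+ RNA was sequenced. Untreated cultures (A, G, M and P) received no fentanyl, low dose cultures (B, H, N and Q) received 0.01 μM, and high dose cultures (C, I, O and R) received 10 μM. The letters come from the sample titles and run on across the conditions, giving the letter sets ABC, GHI, MNO and PQR with 1 culture of each condition. What the letters stand for is not given in the sources used here. The study describes the cultures of a condition as biological replicates. Whether they differ by animal, cell lot or plating is not given in these sources, and p-values measure the spread between these cultures.

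A dividing cell first licenses and copies its DNA, then raises the activity of cyclin-dependent kinase 1, lines up its chromosomes on a spindle and separates them. Most of the genes that carry out these steps are transcribed in S, G2 and M phase under E2F, B-Myb and FoxM1 and are nearly silent in cells that have left the cycle. Neurons do not divide, whereas OPCs, astrocytes in culture and microglia can, so a mixed culture holds both cells that can and cells that cannot make these transcripts. In RNA of whole cultures, fewer cells of a type and less RNA per cell cannot be told apart.

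Total counts per culture ranged from 12059872 to 17023909 without fentanyl, from 12907388 to 16512387 at the low dose and from 15102785 to 24813893 at the high dose. Levels are given as CPM, the counts of a gene scaled to a common library total, after scaling of the libraries. They are not divided by gene length and were not compared between genes. No gene of the set was at or under 3 counts in any culture. The lowest count was 4, for Ccnb2 in culture A, and 30 of the 34 genes had at least 10 counts in every culture. Untreated culture G stood apart from the other cultures. Its neuron score, the mean log2(CPM + 1) of 10 neuron markers, was 3.91 where the other 11 cultures had 7.76 to 8.37. Values without G are therefore given beside several of the results that it moves.

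The first question was whether fentanyl at either dose went with a change in these genes. At an adjusted p under 0.05 and an absolute log2 fold change above 0.5, 0 of 34 genes were called for the low dose vs. untreated, the high dose vs. untreated and the high vs. the low dose, against 0% of all genes tested in each comparison (edgeR). DESeq2 with the same factor also called 0 of 34 in each. At an unadjusted p under 0.05 the count was also 0 of 34 in the 3 comparisons, where all genes tested gave 0.742%, 1.19% and 1.17%. These shares lie below the 0.05 expected with no difference at all, so the fit was conservative. Counts of 0 of 34 from it therefore say little about the set. The study itself reported differing genes in each of the 3 comparisons at the same thresholds. No gene had 4 cultures of one condition all above or all below the 4 of another, which 0.407%, 0.685% and 1.19% of all genes did. The median log2 fold change of the 34 genes was 0.09 for low dose vs. untreated, 0.07 for the high dose vs. untreated and 0.04 between the doses. The same medians over all genes tested were 0.01, 0.00 and -0.01. The 2 comparisons with untreated share their 4 control cultures.

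The error of these differences was large for many of the genes. Standard errors of the log2 fold change in low dose vs. untreated ran from 0.11 to 0.82 with a median of 0.37. The 95% interval lay within 1 log2 unit on either side of 0 for 18, 16 and 19 of the 34 genes in the 3 comparisons. For the others the interval reached past 1 log2 unit, so a doubling or a halving was not excluded.

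**Figure D1:**
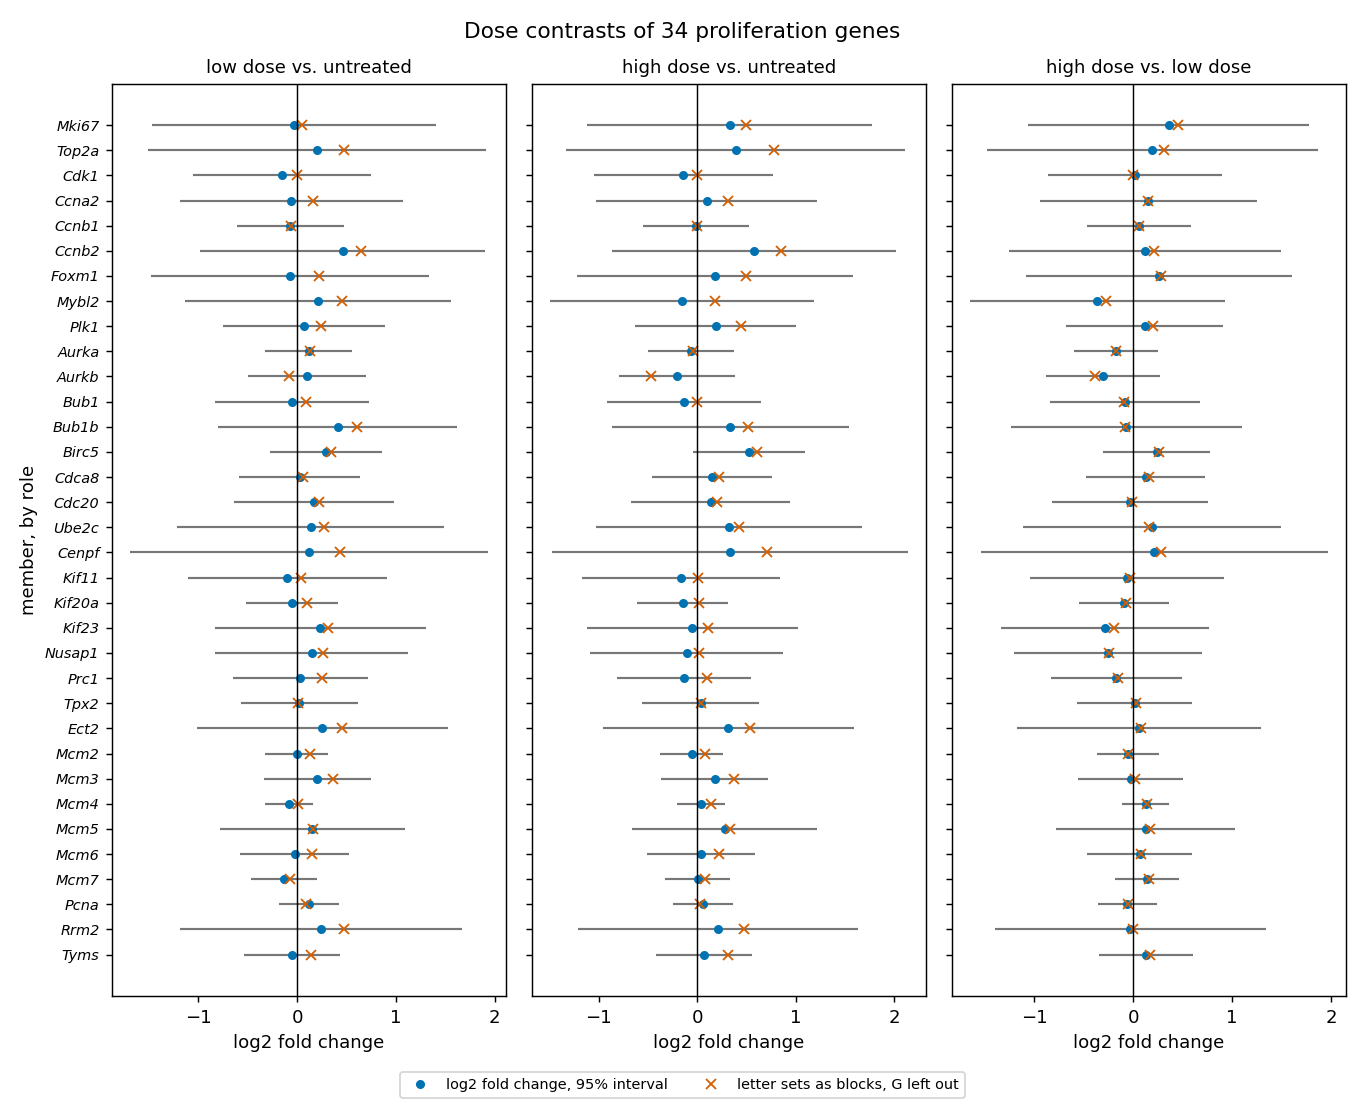
Log2 fold change (x axis) of the 34 genes (rows, ordered by role) in the 3 comparisons. Circles with lines are the edgeR estimates with their 95% intervals and crosses are estimates with the letter sets as blocks and culture G left out. Every interval spans 0, and Birc5 in high dose vs. untreated comes nearest to leaving it out, with an estimate of 0.53.

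Mki67 and Top2a belong to the chromatin of dividing cells. Mki67 encodes Ki-67, the coat protein of mitotic chromosomes used as a general mark of cycling cells. Its level in the untreated cultures A, G, M and P was 4.48, 35.03, 29.1 and 27.4 CPM. In the low dose cultures B, H, N and Q it was 5.62, 13.5, 38.5 and 23.6 CPM, and in the high dose cultures C, I, O and R it was 8.71, 28.5, 31.5 and 32.5 CPM. The lowest culture of each condition was that of the set ABC, and the conditions overlapped throughout. The condition means were 24.0 ± 13.4, 20.3 ± 14.2 and 25.3 ± 11.2 CPM (SD, n = 4 each). The log2 fold change was -0.03 (SE 0.65) in low dose vs. untreated and 0.33 (SE 0.65) in high dose vs. untreated, both with an adjusted p of 1.0 from edgeR.

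Top2a encodes the topoisomerase that untangles chromosomes before they part. It had 0.944, 23.2, 12.1 and 12.1 CPM in untreated cultures A, G, M and P. The low dose cultures B, H, N and Q had 1.92, 6.98, 19.7 and 12.9 CPM, and the high dose cultures C, I, O and R had 4.15, 9.63, 14.5 and 17.0 CPM. Again A, B and C were the lowest cultures of their conditions, and G and N the highest of all. The log2 fold change was 0.20 (SE 0.77) for the low dose and 0.39 (SE 0.78) for the high dose against untreated (edgeR, adjusted p = 1.0 for both).

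The second group holds cyclins, their kinase and the factors that switch them on. Cdk1, the kinase that drives entry into mitosis, had 2.71, 9.15, 5.97 and 5.49 CPM in untreated cultures A, G, M and P. It had 2.77, 2.97, 7.51 and 4.47 CPM in the low dose cultures B, H, N and Q and 2.13, 3.56, 5.35 and 6.45 CPM in the high dose cultures C, I, O and R. The 3 conditions spanned nearly the same range apart from the high value of G. Its log2 fold change against untreated was -0.16 (SE 0.41) at the low and -0.14 (SE 0.41) at the high dose (edgeR, adjusted p = 1.0 for both).

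Ccnb1, the main mitotic partner of Cdk1, differed less between cultures. It had 5.02, 9.28, 6.79 and 5.99 CPM in A, G, M and P. The values were 4.46, 4.82, 7.96 and 5.85 CPM in B, H, N and Q and 3.49, 6.62, 7.22 and 6.70 CPM in C, I, O and R. G had the highest value of all, N the highest at the low dose, and C lay below the other 3 high dose cultures. The log2 fold changes against untreated were -0.07 (SE 0.24) and -0.01 (SE 0.24) at the low and the high dose (edgeR, adjusted p = 1.0 for both).

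Of the remaining genes of this group, Ccna2 encodes the cyclin of S and G2 phase and Ccnb2 a second B-type cyclin. Foxm1 and Mybl2 encode transcription factors of G2 and M phase genes. Ccnb2 had the highest estimate of the set in both comparisons with untreated, 0.46 (SE 0.65) at the low and 0.58 (SE 0.65) at the high dose, and its intervals spanned 0. Ccnb2 was 0.236 CPM in A and 5.71 CPM in G, the lowest and the highest of the 12 cultures, and both of these were untreated. The median log2 fold change of the 6 genes of the group was -0.06 at the low dose against untreated and 0.09 between the 2 doses.

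Among kinases, checkpoint and chromosomal passenger proteins, Plk1 encodes the polo-like kinase of mitotic entry and spindle assembly. It had 2.42, 4.48, 2.54 and 2.33 CPM in A, G, M and P. The values were 2.39, 0.988, 3.79 and 3.65 CPM in B, H, N and Q and 2.37, 2.66, 3.03 and 3.60 CPM in C, I, O and R. The untreated cultures other than G lay close together, and the lowest culture was H at the low dose. The log2 fold change was 0.07 (SE 0.37) at the low and 0.19 (SE 0.37) at the high dose against untreated (edgeR, adjusted p = 1.0 for both).

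Birc5 encodes survivin, a subunit of the chromosomal passenger complex. It had the smallest unadjusted p of the set, 0.0645 from edgeR in high dose vs. untreated, where its log2 fold change was 0.53 (SE 0.25), with an adjusted p of 1.0. Its level was 1.36, 3.89, 2.26 and 2.0 CPM in A, G, M and P and 2.25, 2.91, 3.16 and 2.94 CPM in C, I, O and R. The high dose culture was above the untreated one of its letter set in 3 of 4 sets and below it in GHI. Aurka, the kinase of centrosomes, and the spindle checkpoint genes Bub1 and Bub1b had unadjusted p-values above 0.05 in all 3 comparisons, as did Cdca8, the borealin subunit of the passenger complex. Bub1b had the second highest estimate of the set in low dose vs. untreated, 0.41 (SE 0.54).

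Cdc20, which activates the anaphase-promoting complex, and Ube2c, the ubiquitin-conjugating enzyme that works with it, make up a pair. Both had estimates above 0 against untreated, with a median log2 fold change of 0.15 at the low and 0.23 at the high dose, and neither passed the test.

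The 8 genes measured of the kinetochore, spindle and cytokinesis group comprise Cenpf of the kinetochore, the motors Kif11, Kif20a and Kif23, the microtubule binders Nusap1, Prc1 and Tpx2, and Ect2, which starts the contraction that parts the daughter cells. In low dose vs. untreated 6 of them had an estimate above 0, and in high dose vs. untreated 3 did. The median log2 fold change of the 8 was 0.08 and -0.08 in these comparisons, small beside the SE of 0.82 for Cenpf. Kif11, the motor that pushes spindle poles apart, had -0.17 (SE 0.45) at the high dose against untreated.

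DNA replication and nucleotide synthesis make up the last group of 9 genes. Mcm2, a subunit of the ring-shaped replicative helicase, had 20.1, 35.2, 18.2 and 17.5 CPM in A, G, M and P. It had 17.5, 16.9, 27.6 and 16.8 CPM in B, H, N and Q and 19.2, 16.2, 20.6 and 19.3 CPM in C, I, O and R. Apart from G and N the cultures lay between 16.2 and 20.6 CPM, with no separation by dose. The log2 fold change against untreated was -0.0041 (SE 0.14) at the low and -0.06 (SE 0.14) at the high dose (edgeR, adjusted p = 1.0 for both).

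Pcna, the sliding clamp of DNA polymerases, was among the steadiest genes of the set. Its level was 93.8, 97.5, 94.2 and 75.9 CPM in A, G, M and P. The low dose cultures B, H, N and Q had 84.1, 95.4, 117 and 80.5 CPM, and the high dose cultures C, I, O and R had 84.8, 89.3, 111 and 78.1 CPM. The means of 90.3 ± 9.76, 94.3 ± 16.5 and 90.7 ± 14.0 CPM (SD, n = 4 each) differed by less than the spread within a condition. The 95% interval of the log2 fold change ran from -0.19 to 0.42 at the low and from -0.25 to 0.36 at the high dose.

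Rrm2, the inducible subunit of the enzyme that makes deoxynucleotides, was among the most variable. It had 3.89, 42.9, 14.2 and 21.1 CPM in A, G, M and P, 5.16, 13.5, 23.8 and 26.7 CPM in B, H, N and Q, and 5.63, 15.1, 21.1 and 25.7 CPM in C, I, O and R. The untreated cultures held both the lowest and the highest value. Its log2 fold change was 0.24 (SE 0.64) at the low and 0.21 (SE 0.64) at the high dose against untreated (edgeR, adjusted p = 1.0 for both). The helicase subunits Mcm3, Mcm4, Mcm5, Mcm6 and Mcm7, and Tyms, which makes thymidylate, did not pass the test in any comparison either. Mcm7 had the second lowest estimate of the set in low dose vs. untreated, -0.14 (SE 0.15).

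**Figure D2:**
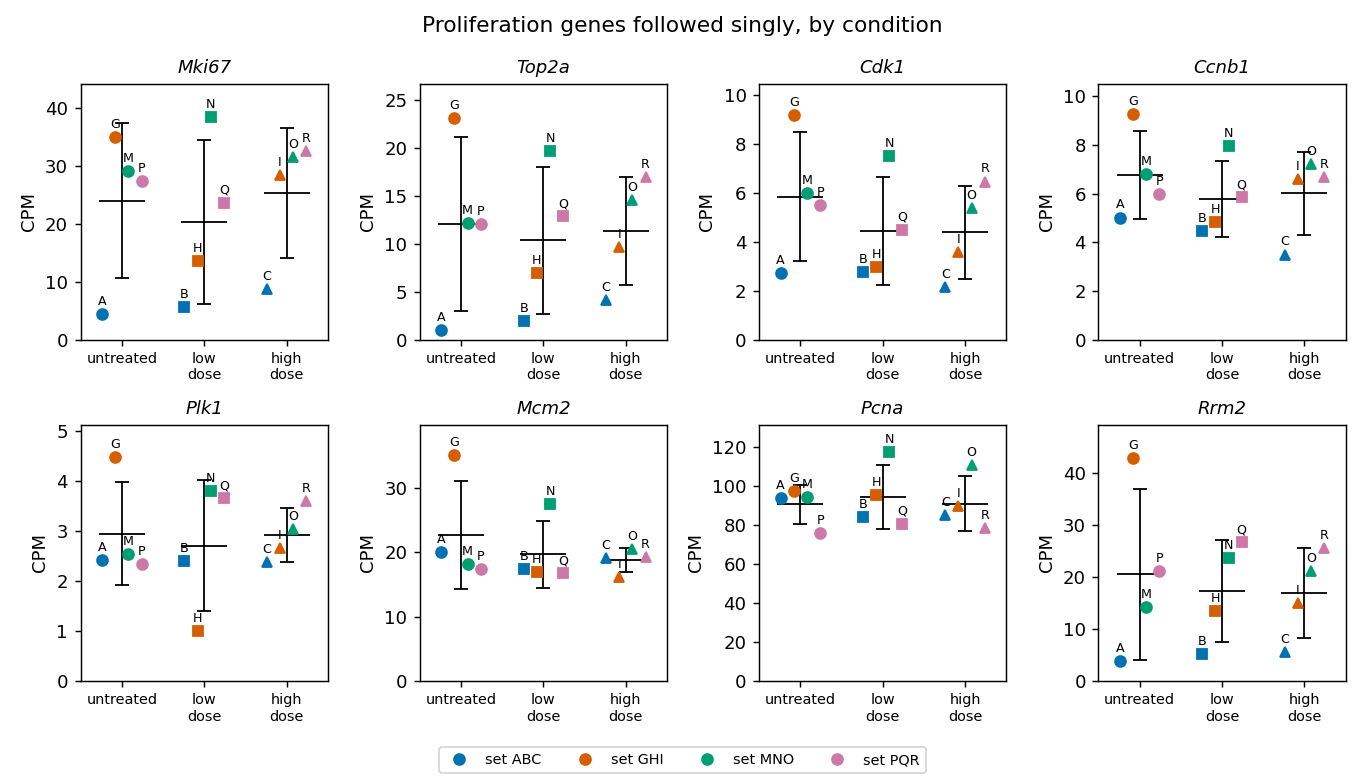
Level in CPM (y axis, from 0) of 8 genes in untreated, low dose and high dose cultures (x axis). Each point is 1 culture with its letter, coloured by letter set, and the bars are the mean ± SD of 4 cultures. For Mki67, Top2a, Cdk1 and Rrm2 the culture of set ABC is the lowest in each condition, while Pcna stays between 75.9 and 117 CPM.

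Differences within letter sets depended on which set was taken. The low dose culture was above the untreated one for 23 of 34 genes in ABC, for 1 in GHI, for 30 in MNO and for 20 in PQR. The corresponding counts for high dose vs. untreated were 22, 1, 31 and 27, and between the high and the low dose 21, 27, 4 and 21. Around 50% of all genes tested were higher in each of these pairs, from 48.9% to 51.2%. In GHI the median difference of the set was -1.02 in log2(CPM + 1) for the low and -0.90 for the high dose culture against untreated culture G. In MNO it was 0.40 and 0.15. No gene of the set was higher, or lower, in all 4 letter sets in either comparison with untreated, which 4.06% and 5.22% of all genes were in the upward direction. In high dose vs. low dose, Foxm1, Cenpf and Mcm4 were higher and Aurka, Aurkb and Bub1 lower in all 4 sets, where 11.7% and 11.1% of all genes were.

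With the letter sets as blocks in place of the factor of unwanted variation, and culture G kept, the median log2 fold changes turned to -0.19 and -0.15 against untreated, and 5 and 8 of the 34 estimates were above 0. With culture G left out of the blocked fit, 30 of 34 estimates were above 0 in both comparisons, with medians of 0.16 at the low and 0.21 at the high dose, where all genes tested had a median of 0.00 in both. Leaving out 1 untreated culture thus turned the direction of the set in the blocked fit. With neither factor nor blocks the medians were -0.20 at the low and -0.18 at the high dose, and with culture A left out of the reported fit they were -0.21 and -0.17. In the blocked fit without G, 0 of 34 genes were called, while 0, 15 and 14 of all genes were in the 3 comparisons.

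At an unadjusted p under 0.05 in that fit, 1 of 34 genes was found in low dose vs. untreated, where 7.54% of all genes did. It was Rrm2, whose log2 fold change was 0.48 (SE 0.11), with an adjusted p of 0.64 from edgeR. In high dose vs. untreated 6 of 34 did, against 9.43% of all genes. These were Top2a with 0.78 (SE 0.28), Ccnb2 with 0.85 (SE 0.34), Foxm1 with 0.50 (SE 0.22), Birc5 with 0.60 (SE 0.21), Cenpf with 0.71 (SE 0.26) and Rrm2 with 0.48 (SE 0.11). Their adjusted p from edgeR ran from 0.21 for Rrm2 to 0.52 for Foxm1. In high dose vs. low dose 1 of 34 did, against 13.6% of all genes, and this was Mki67 with 0.45 (SE 0.20). In the sets ABC, MNO and PQR, taken after the values of G had been seen, 16 of 34 genes were higher at the high dose than untreated in all 3 sets and 0 were lower, where 15.1% and 14.5% of all genes were. At the low dose these counts were 10 and 0, where 13.9% and 13.7% of all genes were. These values come from 3 pairs of cultures.

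Letter sets separated the genes more than the doses did, as they did for genes in general. The test of the letter set term called 10 of 34 genes, or 29.4%, at an adjusted p under 0.05 from edgeR. That is close to the 27.9% called among all genes tested. Without culture G the test called 29 of 34, where 66.3% of all genes were called. The 5 genes not called without G were Mcm2, Mcm7, Kif20a, Aurka and Plk1. The count with G rested on single cultures, since it fell to 1 when A, P, B, Q, C or O was left out and to 2 when N or R was. Without G, letter sets held a median of 83.3% of the variance of a gene of the set and doses 5.04%, where the medians over all genes were 75.3% and 6.75%. Letter set was entered before dose, and GHI had no untreated culture there. Variance shared by both terms was therefore credited to the letter set.

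The set ABC, singled out after its values were seen, lay at the low end for most of these genes. In 20 of 34 genes A, B and C were all below each of the 9 other cultures, which held for 14.5% of all genes tested. In 0 of 34 they were all above, which held for 14.3% of all genes. The mean CPM of the 8 other cultures without G was a median of 1.99 times that of A, B and C, where the median over all genes was 1.03. The ratio exceeded 2 for 17 of 34 genes and for 8.85% of all genes.

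The ratio differed between the roles, which no test compared. It was 4.48 for Mki67 and 5.61 for Top2a. In the cyclin and transcription factor group the median was 3.10, from 1.5 for Ccnb1 to 3.94 for Ccnb2. The pair of the anaphase-promoting complex had 2.0 for Cdc20 and 4.24 for Ube2c. In the kinetochore and spindle group the median was 2.46, with the highest ratio of the whole set, 6.14, for Cenpf and the lowest of the group, 1.02, for Kif20a.

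Cenpf had 0.295, 1.0 and 1.42 CPM in A, B and C and 2.66 to 9.66 CPM in the other 9 cultures, so the 2 ranges did not meet. Among kinases and checkpoint genes the median was 1.58, from 0.66 for Aurkb to 2.89 for Bub1b. In the replication group the median was 1.11. Mcm2, Pcna, Mcm4 and Tyms had ratios of 1.01, 1.06, 1.11 and 1.11, and Mcm6 had 0.69, with 15.9, 16.6 and 16.3 CPM in A, B and C. Mcm7 had a ratio of 1.2 and Mcm3 of 1.5, the latter as high as that of Ccnb1. Rrm2 with 4.12 and Mcm5 with 2.64 had the highest ratios of that group.

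**Figure D3:**
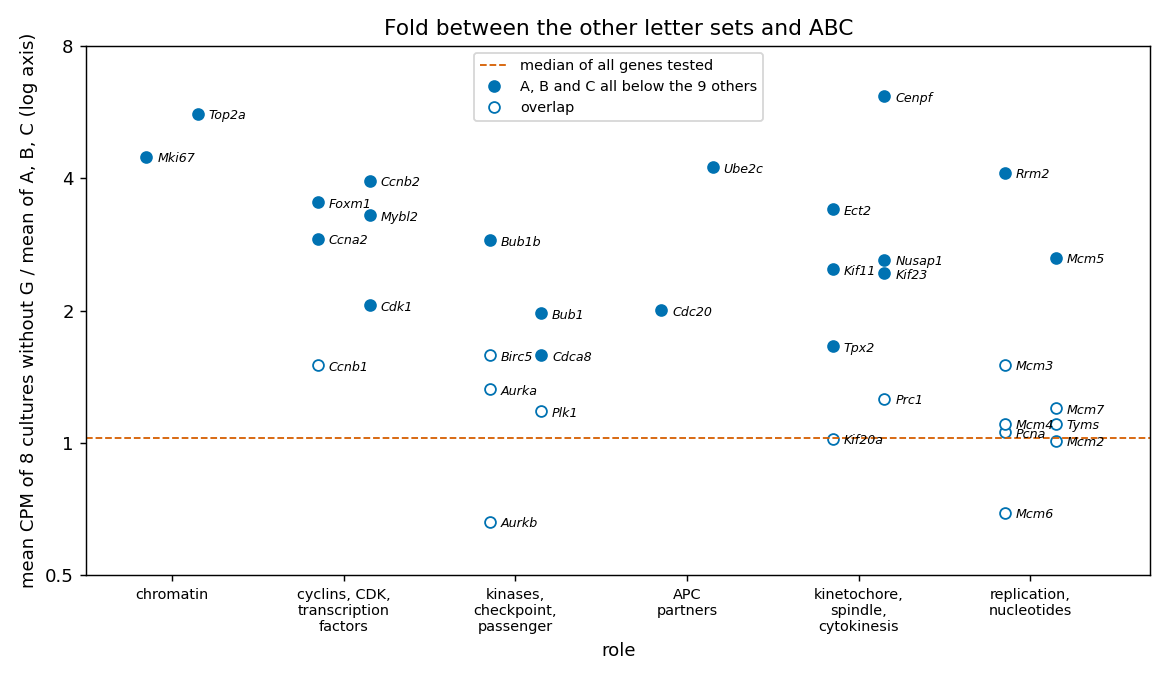
Mean CPM of 8 cultures (H, I, M, N, O, P, Q and R) divided by the mean of A, B and C, on a log axis, for each gene by role. Filled points mark the 20 genes in which A, B and C were all below the 9 other cultures, and the dashed line is the median of all genes tested, 1.03. Cenpf, Top2a and Mki67 lie highest, and Aurkb and Mcm6 lie below 1.

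Culture G held the highest level of 29 of the 34 genes, where it was highest for 27.7% of all genes tested. The exceptions were Mki67, Kif23, Tpx2 and Pcna, highest in low dose culture N, and Aurkb, highest in low dose culture B. The level in G was a median of 1.90 times the median of the other 11 cultures, where the median over all genes was 1.0. The ratio was highest for Mybl2 with 3.31, Mcm3 with 2.93 and Rrm2 with 2.85, and for Pcna it was 1.09. Unlike the contrast with ABC, the excess in G reached the replication group, whose median ratio was 1.94. Tyms had 34.9 CPM in G and 8.77 to 21.7 CPM elsewhere. Without G, culture N was highest for 23 of 34 genes, where it was highest for 11.5% of all genes.

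**Figure D4:**
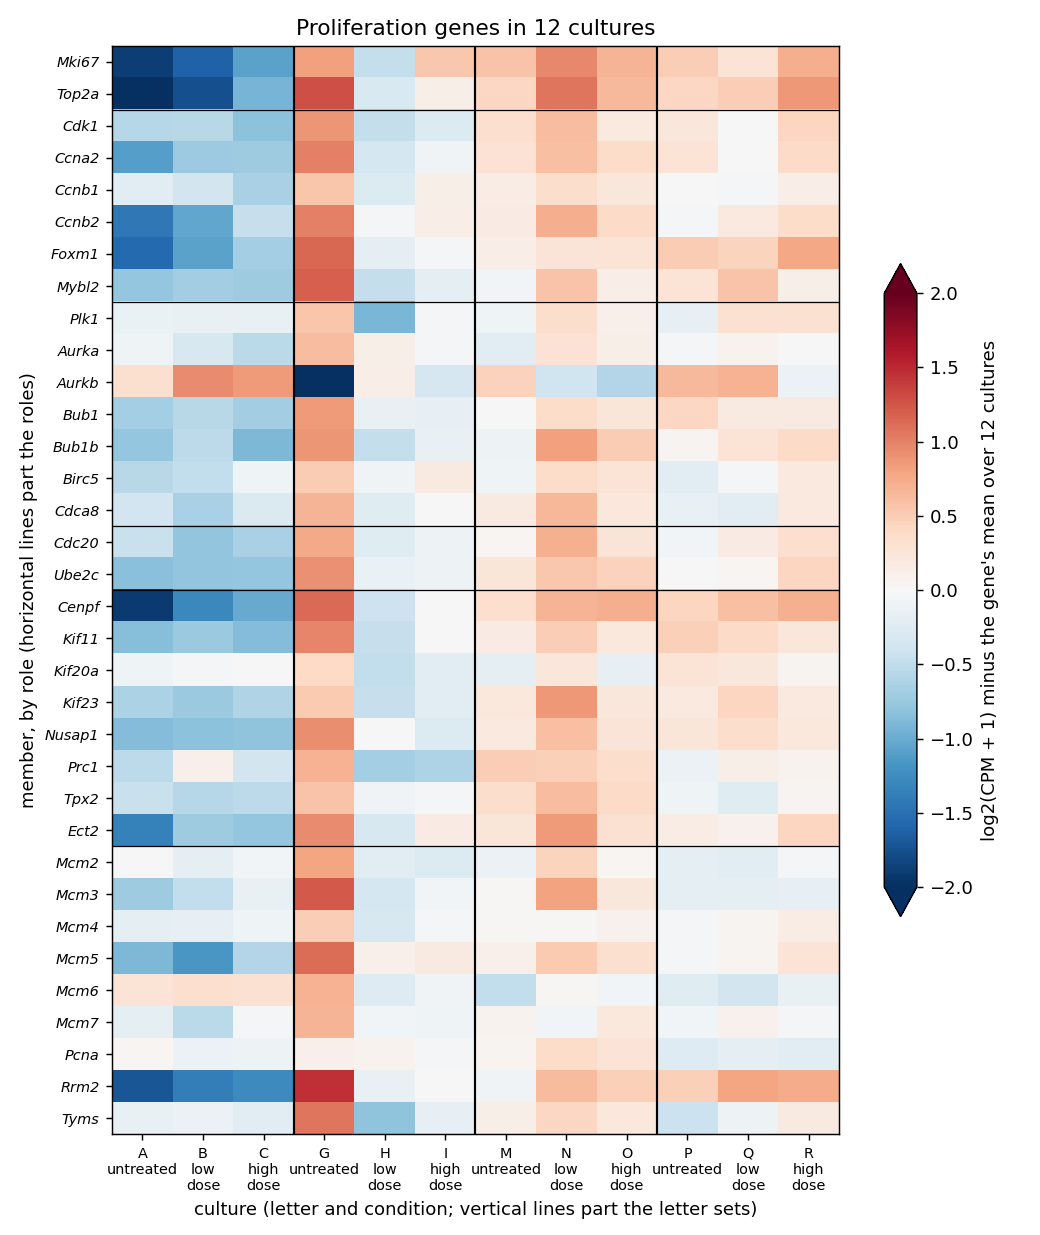
Level of each gene (rows, by role) in each culture (columns, by letter set), as log2(CPM + 1) minus the mean of the gene over the 12 cultures, with red above and blue below the mean and the colour ending at 2 units. Columns A, B and C are blue for most rows, column G is red for all rows except Aurkb, and N is the second reddest column.

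Averaged over the 34 genes, log2(CPM + 1) was 3.11 ± 0.58 without fentanyl, 3.0 ± 0.47 at the low dose and 3.04 ± 0.35 at the high dose (SD, n = 4 each). With G left out the untreated mean was 2.89, below the means of both doses, so the order of the conditions rested on G. By culture it was 2.35, 2.47 and 2.56 in A, B and C, and 3.78, 2.77 and 2.99 in G, H and I. It was 3.16, 3.54 and 3.30 in M, N and O and 3.14, 3.20 and 3.29 in P, Q and R. Of the untreated cultures, A was the lowest and G the highest of all 12.

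Aurkb, the kinase of the chromosomal passenger complex, went against the other genes. It had 118, 14.7, 130 and 149 CPM in untreated cultures A, G, M and P. The low dose cultures B, H, N and Q had 182, 103, 71.3 and 153 CPM, and the high dose cultures C, I, O and R had 171, 74.2, 62.8 and 86.9 CPM. It was lowest in G, at 0.125 times the median of the other cultures, where 29 of the 34 genes were highest, and its highest values were those of B and C. Its partners in the complex ran with the rest of the set. Birc5, Cdca8 and Incenp, the scaffold of the complex, were highest in G or N. No other gene overlaps Aurkb in the RefSeq annotation of the assembly GRCr8, which is a later build than that of the counts. The neuron score was also lowest in G. Among the other cultures, Q and P had the lowest neuron scores, 7.76 and 7.80, with 153 and 149 CPM of Aurkb. I and O had the highest, 8.37 and 8.25, with 74.2 and 62.8 CPM. A, B and C lay between, at 8.12 to 8.23, with 118 to 182 CPM. The part of neurons in the values of Aurkb was not tested. Without Aurkb the mean over the set was 2.21, 2.31 and 2.42 in A, B and C and 3.77 in G. Foxm1, Plk1, Aurka, Kif11, Kif20a, Nusap1 and Rrm2 each overlap another protein-coding gene in that annotation. The sources used here do not say whether counting used the strand, so reads of such pairs may not be told apart.

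Other genes of the cycle were taken from lists by step. Of 50 other mitotic genes 41 were in the table and tested, 0 were called and 0 had an unadjusted p under 0.05 in any comparison. A, B and C were all below the 9 other cultures for 23 of them, which held for 14.5% of all genes tested. The median ratio of the 8 other cultures to ABC was 1.94, where all genes had 1.03. Pbk, a mitotic kinase named after its values were seen, had 0.177, 0.154 and 0.178 CPM in A, B and C, which is at or under 3 counts in each, and 1.73 to 4.67 CPM elsewhere. Smc2, the condensin subunit with the highest mean count of the list, had a ratio of 1.08.

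Of 43 other replication genes 42 were in the table, 0 were called, and the median ratio to ABC was 1.04. Their member with the highest mean count was Rrm1, the partner of Rrm2, with 47.8 to 68.4 CPM across the 12 cultures and a ratio of 0.90. Against the low dose, Gmnn, the inhibitor of licensing, and Gins1 of the replicative helicase had estimates of -0.40 (SE 0.16) and -0.72 (SE 0.28) at the high dose, with an adjusted p of 1.0 from edgeR for both.

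Of 22 G1 cyclins, kinases and E2F factors 19 were in the table, with 0 called and 0 at an unadjusted p under 0.05. Ccnd1, the cyclin that couples growth signals to the cycle and the member with the highest mean count, had 87.3, 85.5 and 90.9 CPM in A, B and C, 2771 CPM in G and 159 to 403 CPM in the other cultures. Ccne1 and E2f1, which act at the start of S phase and were named after their values were seen, ran the other way. Ccne1 had 38.4, 32.5 and 30.8 CPM in A, B and C and 7.52 to 22.5 CPM elsewhere. E2f1 had 11.4, 11.5 and 13.2 CPM in A, B and C and 3.44 to 10.3 CPM elsewhere.

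Of 21 cell cycle inhibitors 19 were in the table, 0 were called and 1 had an unadjusted p under 0.05 against untreated. This was Cdkn1c, which encodes the kinase inhibitor p57, whose log2 fold change was 0.62 (SE 0.21) at the high dose, with an adjusted p of 1.0 from edgeR. Its level was 7.79, 20.2, 10.8 and 12.9 CPM in A, G, M and P and 14.7, 18.0, 19.2 and 17.2 CPM in C, I, O and R, which overlap through G. Ccng1, a target of p53 with the highest mean count of the list, had 947 to 996 CPM in A, B and C and 1153 to 1626 CPM elsewhere. Cdkn1a, the p21 inhibitor, was also named after its values were seen. It had 197, 163 and 165 CPM in A, B and C and 251 to 514 CPM elsewhere. A, B and C were all below the 9 other cultures for 6 of the 19 inhibitors, which held for 14.5% of all genes tested. They were all above for 0 of the 19. Cdkn1b lay toward the other side, with 91.3, 98.7 and 82.6 CPM in A, B and C and 64.7 to 85.0 CPM elsewhere. ABC was thus low for many mitotic genes and for some, not most, of the inhibitors.

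Markers of the cell types moved with some of these differences. OPCs are the dividing cells of the oligodendrocyte lineage, and their score over 7 of 8 listed markers was 5.40, 5.78 and 5.97 in A, B and C and 6.84 to 7.63 elsewhere. For 6 of the 7, A, B and C were all below the 9 other cultures, which held for 14.5% of all genes tested. The gap was narrow for Pdgfra, with 106 CPM in B and 107 CPM in H. Ptprz1 overlapped, with 361 CPM in C and 305 CPM in H. Sox10, a defining factor of the lineage, had 55.7, 70.4 and 70.1 CPM in A, B and C and 141 to 257 CPM elsewhere. The oligodendrocyte score over 8 markers was 6.52, 7.22 and 6.92 in A, B and C and 7.56 to 9.76 elsewhere.

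The microglia and macrophage score over 11 markers was 1.92, 2.13 and 2.11 in P, Q and R, and Cx3cr1, a defining marker, had no count in R. The proliferation genes stood at 3.14 to 3.29 in P, Q and R, above A, B and C. In the other 9 cultures the microglia score was lowest in A, B and C, at 4.34, 4.72 and 4.94 against 5.12 to 6.26, and highest in N and G, at 6.26 and 5.81. These are also the cultures with the least and the most proliferation transcripts. Not every marker followed the microglia score. C1qa, C1qb and C1qc did, lowest in A, B and C and highest in N and G among these 9. Cx3cr1 had 0.584 CPM in G, the lowest of the 9, and 3.92 CPM in B against 1.79 CPM in H. Csf1r had 69.0 CPM in G, below the 88.3 to 184 CPM of H, I, M, N and O. The cultures G and N, with the most proliferation transcripts, also had the highest fibroblast and meningeal score over 9 markers, 7.50 and 6.37 against 3.42 to 4.89 elsewhere. The markers of that list did not share 1 pattern. Col1a1, a collagen of fibroblasts, had 502 CPM in G, 1265 in N, 214 in M, 102 in O and 3.83 to 17.8 in the other 8 cultures. Dcn and Lum, proteoglycans of the matrix, had 68.3 and 34.8 CPM in G and 0.587 and 0.196 CPM in N, where N lay within the range of the others. Mgp was lowest in G, at 220 CPM, and Igf2 had 13.6 CPM in N, below the 24.3 to 26.2 CPM of A, B and C. The astrocyte score over 8 markers was 8.37 in G and 8.12 to 8.55 in P, Q and R, against 6.75 to 7.68 in the other cultures. The neuron score of A, B and C, 8.12 to 8.23, lay within the range of the other cultures without G, but its markers were split. Tubb3, Syt1, Map2, Stmn2 and Slc17a7, 5 of the 10 markers, were higher in A, B and C than in each of the other 9 cultures, as were 14.3% of all genes tested, and Slc17a7 had 1014 to 1272 CPM there against at most 978 CPM elsewhere. The neural progenitor score over 7 markers was 5.38 to 5.71 in all 12 cultures. The endothelial score over 7 markers was 2.47 in G and 0.420 to 1.38 elsewhere, and the ciliated ependymal score over 4 markers was 2.17 to 3.57 in all. The part of these cell types in the levels of the proliferation genes was not tested.

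**Figure D5:**
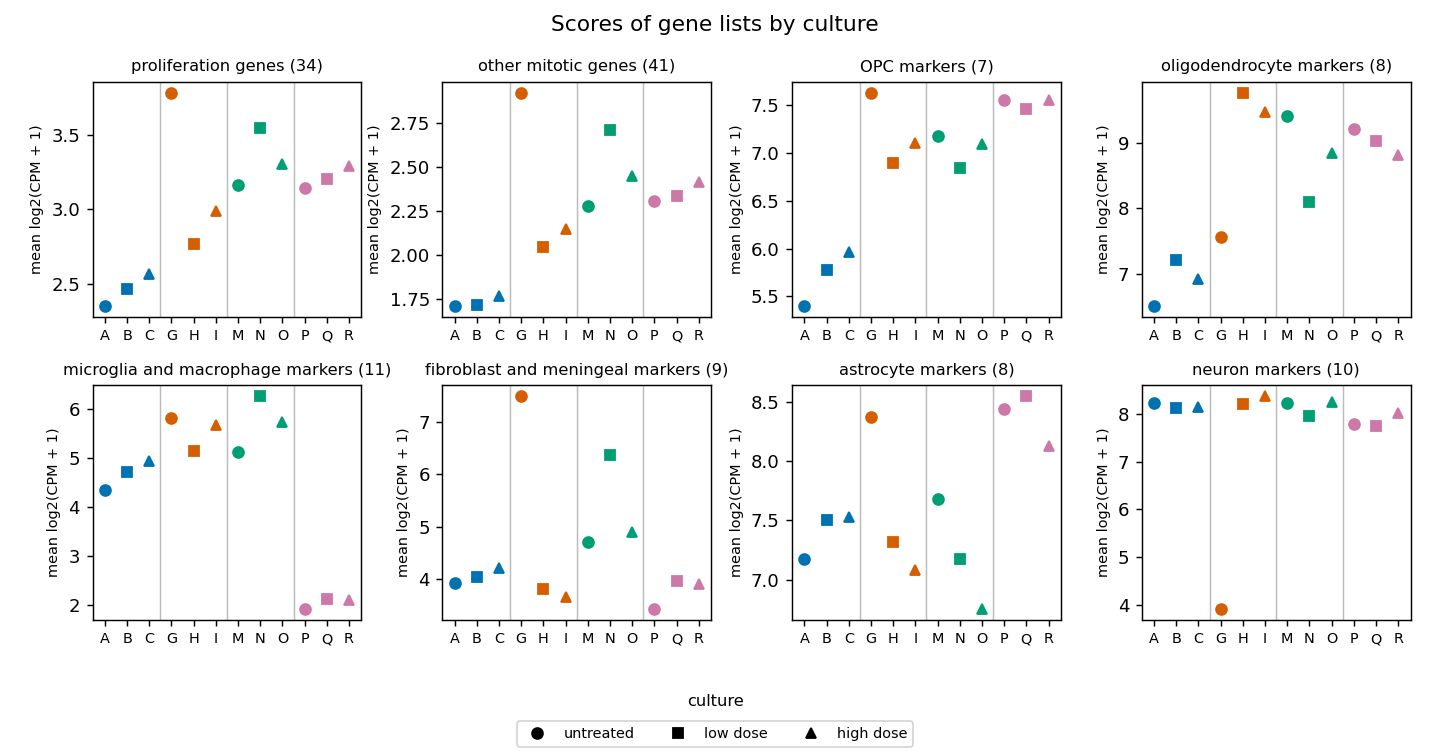
Mean log2(CPM + 1) (y axis) of 8 gene lists in the 12 cultures (x axis), with the number of genes in parentheses, 1 point per culture, coloured by letter set and shaped by condition. The proliferation genes, the other mitotic genes and the OPC and oligodendrocyte markers are lowest in A, B and C. The microglia and macrophage markers are lowest in P, Q and R, and the neuron markers in G.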

How the data were processed

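RNA-seq data of 12 cultures in 3 conditions (n = 4 each) were used. The authors aligned reads to the rat build rn6 with STAR, made counts per gene with featureCounts, and deposited these raw counts per gene symbol, with no normalization. Of 17337 symbols 2226 had no count. Groups came from the agent in the labels. Tests were made in R 4.3.3 with edgeR 4.0.16. Genes were kept by filterByExpr, libraries were scaled by TMM, and 1 factor of unwanted variation was estimated from the replicates of each condition by the RUVs formula, since the study names RUVseq without a procedure. This factor held 41.0% of the variation within conditions. The model with conditions and factor was fitted over all 12271 genes, the quasi-likelihood test was applied with Benjamini-Hochberg adjustment, and standard errors came from its statistic. CPM used the TMM-scaled total of the kept genes. Scores are means of log2(CPM + 1). Letter sets were tested with condition and set as terms and no factor.

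The members, the lists and the named genes (8 followed singly, any member past a threshold, and in other lists the smallest p and highest mean count) were chosen with earlier results of these data known. Some genes of the lists, such as Ccne1, E2f1, Cdkn1a and Pbk, were named outside these rules after their values were seen. Symbols were looked up in RefSeq names of GRCr8, and 2 (Fam64a, Sgol2) matched through an older symbol. Among 18 pairs of cultures of one condition, chi-square per degree of freedom was at least 18.3, so none was a duplicate library. The floor of 3 counts covers counting error only. The alternatives were no factor, 2 factors, a replicate block by letter sets with and without G, size factors of DESeq2 1.42.0 or its test, the likelihood ratio test, no filter, a minimum of 10 counts in each of the cultures, a fit of the 8 cultures compared alone, and each culture left out. The script was tested on simulated counts. Promoter sequences were not used here.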

Additional observations from a re-analysis of the deposited data

Results flagged for a closer look

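Single cultures stood far from the other 3 of their condition for 7 of 102 groups of a gene and a condition, and chance gives about 1 in 20 groups. Mki67 was low in high dose culture C, with 8.71 CPM where the others had 28.5 to 32.5 CPM. Ccnb1 was low in the same culture, with 3.49 CPM against 6.62 to 7.22 CPM. Plk1 and Mcm2 were high in untreated culture G, with 4.48 CPM against 2.33 to 2.54 CPM and with 35.2 CPM against 17.5 to 20.1 CPM. Mcm2 and Mcm3 were high in low dose culture N, with 27.6 CPM against 16.8 to 17.5 CPM and with 11.1 CPM against 3.92 to 5.09 CPM. Pcna was low in untreated culture P, with 75.9 CPM against 93.8 to 97.5 CPM. The cultures G and N also had the highest fibroblast and meningeal scores, 7.50 and 6.37, though not every marker of that list was high there, and the part of those cells was not tested.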

How the results depend on the processing

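In all alternatives 0 of the 34 genes were called in each dose comparison, and the medians of their log2 fold changes ranged over both signs, from -0.21 to 0.28 at the low dose, from -0.18 to 0.22 at the high dose and from -0.13 to 0.24 between the doses, with shifts below the SD between cultures. Estimates of single genes also changed sign while no member was called. Without a factor, low dose vs. untreated gave -0.22 for Top2a, -0.12 for Plk1 and -0.25 for Rrm2, high dose vs. untreated -0.091, -0.013 and -0.28, and the doses differed by -0.017 for Cdk1. With 2 factors, Mki67 was 0.26 at the low and Ccnb1 0.015 at the high dose against untreated, and Cdk1 was -0.038 and Rrm2 0.040 in high dose vs. low dose. That fit called 1 gene in each comparison of the high dose and gave 2 members an unadjusted p under 0.05 against untreated.

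The letters mark no stated pairing. With the replicate block by letter sets, low dose vs. untreated gave -0.13 for Top2a, -0.19 for Plk1 and -0.12 for Rrm2, high dose vs. untreated -0.053 for Plk1, -0.0033 for Pcna and -0.13 for Rrm2, and high dose vs. low dose -0.035 for Cdk1. With the block and G left out, Mki67 was 0.052 and Mcm2 0.13 at the low dose, Mcm2 0.081 at the high dose, and Cdk1 -0.0039 and Rrm2 0.0024 between the doses. That fit called 0, 15 and 14 genes and gave 1, 6 and 1 members an unadjusted p under 0.05.

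With at least 10 counts in every culture, Mki67 was 0.097 and Mcm2 0.0031 at the low dose, Ccnb1 0.033 at the high dose and Rrm2 0.020 between the doses, and 1 member had an unadjusted p under 0.05 in high dose vs. untreated. With only the 8 cultures compared, Mcm2 was 0.0043 at the low dose and Cdk1 -0.060 between the doses. Leaving out ABC, chosen after the data were seen, gave -0.049 for Top2a, 0.040 for Mcm2 and -0.031 for Rrm2 at the low dose and 0.041 for Ccnb1 and -0.076 for Rrm2 at the high dose. DESeq2 called 3 genes in the high dose vs. untreated and 1 between the doses, and the likelihood ratio test 2 in the former. The likelihood ratio test of the letter sets called 16 members. The median over members at the high dose was 2.63 in log2(CPM + 1).

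With each culture left out in turn, estimates ran as follows. In low dose vs. untreated the range was -0.52 to 0.42 for Mki67, -0.43 to 0.81 for Top2a, -0.51 to 0.039 for Cdk1, -0.23 to 0.0059 for Ccnb1, -0.13 to 0.33 for Plk1, -0.15 to 0.075 for Mcm2, -0.0067 to 0.17 for Pcna and -0.40 to 0.88 for Rrm2. In high dose vs. untreated the range was -0.20 to 0.82 for Mki67, -0.28 to 1.06 for Top2a, -0.50 to 0.059 for Cdk1, -0.17 to 0.16 for Ccnb1, -0.14 to 0.015 for Mcm2, -0.045 to 0.10 for Pcna and -0.43 to 0.89 for Rrm2. In high dose vs. low dose the range was -0.16 to 0.53 for Top2a, -0.29 to 0.29 for Cdk1, -0.032 to 0.24 for Ccnb1, -0.16 to 0.34 for Plk1, -0.11 to 0.088 for Mcm2, -0.15 to 0.05003 for Pcna and -0.40 to 0.37 for Rrm2. Between 0 and 1 members had an unadjusted p under 0.05 in each comparison of the high dose. The letter set test called 1 to 29 members and 1549 to 8182 genes, where leaving out a culture other than G was added after the data were seen. The cause of the changes in sign was not tested. With 4 cultures per condition and SEs up to 0.82, the 95% intervals of many members did not exclude differences of 1 log2 unit.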

Other observations

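The inhibitors of the INK4 locus were high in culture G. Cdkn2b, which encodes p15, had 173 CPM in G and 3.46 to 17.0 CPM in the other 11 cultures. Cdkn2a had 20.4 CPM in G and 0.693 to 5.02 CPM elsewhere, with 0.708, 0.693 and 1.36 CPM in A, B and C. Ccnd2, a D-type cyclin, had 218 CPM in G and 48.6 to 105 CPM elsewhere. These genes were named after their values were seen.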
